A study of Homo sapiens with 12 samples.

Results

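The glucocorticoid-responsive genes TSC22D3, TSC22D1, KLF9, SGK1, FKBP5, NR3C1 and ZBTB16 were examined in U87 cells, an established human glioblastoma line, after 72 h with 1 of 3 small molecules or vehicle. They are 7 of the 62757 genes in the table and were found there by gene ID. The set was chosen from results of these same libraries that were already known, with no threshold on any value. The levels and differences of its members are therefore given as a description. Whether a member was called in the fit over all genes is stated, but no p-value is given and nothing is concluded from the calls. The doses were 30 µM for compound 1, 10 µM for compound 4 and 5 µM for compound 5, and the remaining cultures received vehicle. Poly(A) RNA was sequenced from 3 cultures in each of these 4 groups, which are independent biological replicates per the labels. All cultures were of the same line and grew in DMEM with 10% fetal bovine serum, and the labels name no glucocorticoid among the treatments. The compounds are known from the labels by number only. Because their doses differ, their values stand side by side and were not tested against each other, and all 3 were set against the same vehicle libraries.

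The glucocorticoid receptor, encoded by NR3C1, is held in the cytoplasm by HSP90 chaperones and immunophilins until it binds cortisol or a synthetic steroid such as dexamethasone. It then enters the nucleus, binds palindromic response elements and raises the transcription of genes such as TSC22D3, FKBP5, KLF9, SGK1 and ZBTB16, while it restrains NF-kB and AP-1 at inflammatory genes. Several of these genes also answer to other signals, FOXO transcription factors and osmotic or growth factor signalling among them, and dexamethasone is widely given to people with glioblastoma against brain oedema.

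Levels are the deposited regularized log (rlog) values, on a log2 scale and relative to the size of each library, so fewer cells and less RNA per cell cannot be told apart in them. Library depth is unknown, as the table holds no counts. Of 12 glial and glioblastoma markers, 10 had a mean of at least 3, the level required for testing, VIM, CD44, EGFR and NES among them. S100B (means of 0.768 to 0.784) and SOX2 (0.0836 to 0.0975) did not. On the linear rlog scale the glial list summed to 390000 to 399000 with compound 1 and 303000 to 321000 with compound 4. It summed to 373000 to 422000 with compound 5, against 316000 to 336000 with vehicle. FN1, its highest gene, averaged 17.70, 17.17 and 17.66 with compounds 1, 4 and 5, against 17.23 with vehicle. Of 8 leukocyte markers only CSF1R passed, and PTPRC had group means of 0.0643 to 0.0773. CSF1R rose with compound 4 (by 0.292) and compound 5 (by 0.236), and the leukocyte list summed to 213 to 249 with compound 1, 258 to 281 with compound 4 and 257 to 267 with compound 5, against 221 to 228 with vehicle, on the linear rlog scale. CSF1R, at 7.73 with vehicle, makes up most of these leukocyte sums. Of 8 endothelial and epithelial markers 5 were tested. VWF fell by 0.39 with compound 4 (limma adjusted p = 7.03e-09) and fell by 0.31 with compound 5 (adjusted p = 6.31e-07), KRT8 fell by 0.25 with compound 4, CDH5 had means of 1.61 to 1.63 and CDH1 was below 0. That list summed to 365 to 368 with compound 1, 332 to 343 with compound 4 and 338 to 358 with compound 5, against 348 to 372 with vehicle. The nuclear RNA NEAT1 averaged 12.45 ± 0.19, 12.75 ± 0.034 and 12.63 ± 0.099 with compounds 1, 4 and 5, against 11.91 ± 0.21 with vehicle (SD, n = 3 each), and the 13 mitochondrially encoded mRNAs averaged 13.86, 14.06 and 14.26, against 13.68. Replicate 1 of compound 5 stood farthest from the other libraries of its group, at a root mean square difference of 0.0915 against 0.0655 and 0.0703 for the other two.

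The promoters that hold a match to a searched motif are shown first. None of them holds the full or the relaxed response element of the receptor defined below. RefSeq windows on GRCh38.p14, each of 300 bases with 250 before the annotated start, were found for 6 of the 7 members, 22 windows in all, with several starts for most genes. The values are per gene, so which start U87 cells used was not measured. Both strands were searched for the full glucocorticoid response element (the half-sites AGAACA and TGTTCT with 3 bases between them), a relaxed form of it (GNACA and TGTNC with 3 bases between them), the half-site TGTTCT alone, which the full element contains, and the forkhead site TGTTTAC, which FOXO factors bind. The full element was in 0 of the 22 windows and in 0.00285% of all 35116 windows, and the relaxed form in 0 of 22 and in 0.390% of all. The half-site was in 3 of 22 and in 14.8% of all windows, and the forkhead site in 2 of 22 and in 3.42% of all. These 5 windows follow, 5′ to 3′ on the strand of the gene, with the matched letters in capitals.
TSC22D3 (chrX:107717013-107717312, minus strand, forkhead site): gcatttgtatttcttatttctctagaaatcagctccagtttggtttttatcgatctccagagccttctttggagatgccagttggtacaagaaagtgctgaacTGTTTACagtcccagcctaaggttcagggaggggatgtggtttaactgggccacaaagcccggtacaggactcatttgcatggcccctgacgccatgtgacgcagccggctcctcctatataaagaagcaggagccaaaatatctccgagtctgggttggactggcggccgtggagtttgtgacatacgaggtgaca
NR3C1 (chr5:143403234-143403533, minus strand, forkhead site): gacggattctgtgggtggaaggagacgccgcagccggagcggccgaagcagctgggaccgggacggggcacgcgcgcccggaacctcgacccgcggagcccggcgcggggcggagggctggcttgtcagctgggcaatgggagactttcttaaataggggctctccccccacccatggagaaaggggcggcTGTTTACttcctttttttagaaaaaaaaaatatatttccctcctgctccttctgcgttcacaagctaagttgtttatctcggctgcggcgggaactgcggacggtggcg
FKBP5 (chr6:35728534-35728833, minus strand, half-site read on the opposite strand): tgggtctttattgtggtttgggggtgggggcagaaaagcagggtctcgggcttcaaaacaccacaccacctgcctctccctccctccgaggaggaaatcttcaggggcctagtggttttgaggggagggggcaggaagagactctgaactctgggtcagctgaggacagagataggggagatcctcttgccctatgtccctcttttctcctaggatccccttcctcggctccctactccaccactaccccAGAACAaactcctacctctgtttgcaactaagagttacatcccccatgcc
SGK1 (chr6:134177812-134178111, minus strand, half-site read on the opposite strand): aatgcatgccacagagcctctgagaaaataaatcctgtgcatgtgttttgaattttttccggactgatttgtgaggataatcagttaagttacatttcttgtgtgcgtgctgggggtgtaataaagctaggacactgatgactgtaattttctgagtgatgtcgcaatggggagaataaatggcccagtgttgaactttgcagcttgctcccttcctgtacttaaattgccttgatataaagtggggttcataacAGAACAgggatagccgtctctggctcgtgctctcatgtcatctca
TSC22D1 (chr13:44474292-44474591, minus strand, half-site): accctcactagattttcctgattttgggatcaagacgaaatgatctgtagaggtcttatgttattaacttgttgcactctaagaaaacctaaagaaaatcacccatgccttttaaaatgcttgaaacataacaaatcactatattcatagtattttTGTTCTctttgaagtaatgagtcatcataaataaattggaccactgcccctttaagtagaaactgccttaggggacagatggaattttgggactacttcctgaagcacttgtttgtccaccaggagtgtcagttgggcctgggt

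Counted with the annotated start as base 0, the forkhead match began at -147 in the TSC22D3 window and at -59 in the NR3C1 window. The half-site began at 0 in FKBP5, at 5 in SGK1 and at -94 in TSC22D1. The single KLF9 window held no match. A match says only that these letters are in the window. The lack of one says only that they are not, and elements farther away were not searched.

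With compounds 4 and 5, the anti-inflammatory effector TSC22D3 and the transcription factor KLF9 were lower than with vehicle, while the kinase SGK1 was higher, so that the members known as receptor targets did not differ from vehicle in 1 direction. The immunophilin FKBP5, among the most widely used markers of receptor activity, differed from vehicle by no more than 0.104 on the log2 scale with any compound. With compound 1, TSC22D1 was lower than with vehicle. TSC22D3 was higher on average, but its libraries overlapped vehicle and its call was lost in several settings. The other differences with compound 1 were within 0.12.

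Of the 7 members 6 were tested, and ZBTB16 was listed at 0 in all 12 libraries. A gene was called when its adjusted p was under 0.05 in limma, fitted over all 15524 genes with Benjamini-Hochberg adjustment. With compound 1, 1 of the 6 was called higher and 1 lower, where 5.24% and 5.63% of all genes were called higher and lower, or 10.9% in either direction. In 2 members every treated library lay above every vehicle library and in 3 below, against 13.2% and 16.7% of all genes, or 29.9% together. With compound 4, 1 member was called higher and 4 lower, where 19.0% and 21.6% of all genes were, or 40.6% together. The libraries lay above vehicle in 1 member and below in 5, against 25.2% and 28.2% of all genes, or 53.4% together. With compound 5, 1 member was called higher and 3 lower, where 15.9% and 19.2% of all genes were, or 35.1% together. The libraries lay above vehicle in 1 member and below in 4, against 20.9% and 23.2% of all genes, or 44.0% together. The median difference over the 6 was -0.0094 with compound 1, -0.19 with compound 4 and -0.25 with compound 5, against -0.0029, -0.0013 and -0.00094 over all genes. Since the members were named with these values known, nothing is read from the counts. The gene lists below were also chosen with earlier results of these data known. Their shares beside those of all genes are likewise a description and no test of the list.

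**Figure D1:**
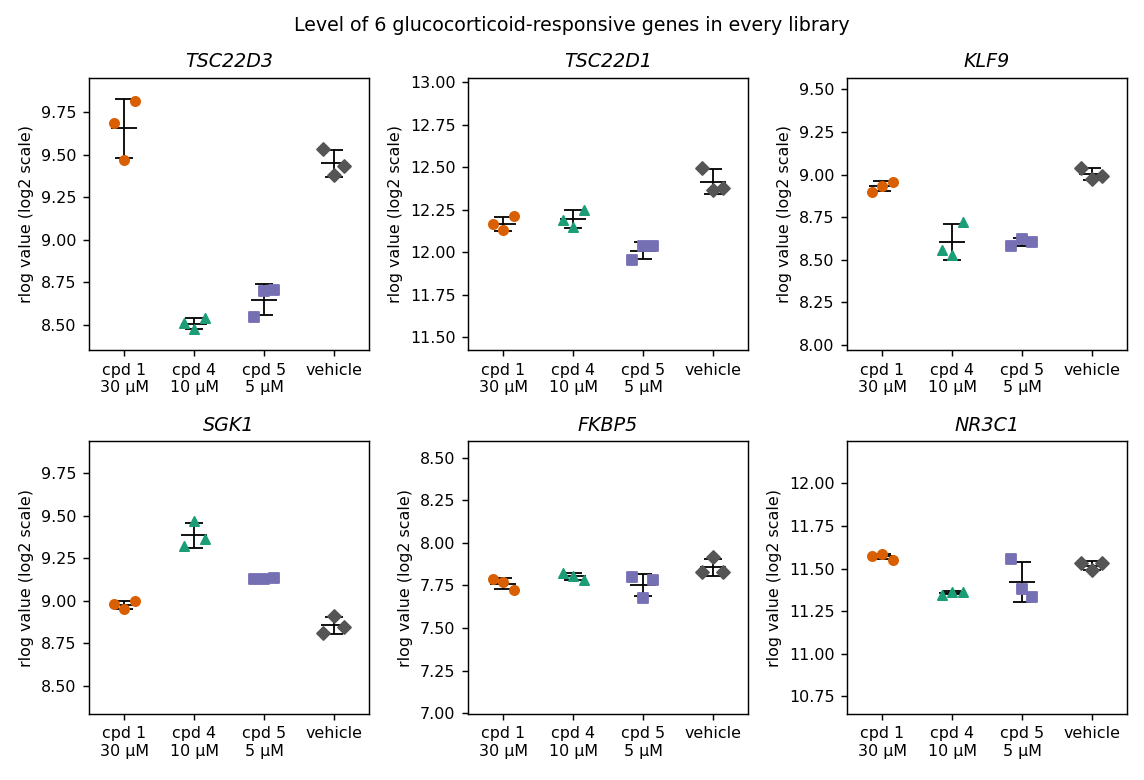
Level of the 6 measured members in each of the 12 libraries, as rlog values on the log2 scale; points are libraries, horizontal bars the group mean and whiskers the SD (n = 3). The panels span the same range of values. The compound 4 and compound 5 libraries lie below vehicle for TSC22D3, KLF9 and TSC22D1 and above it for SGK1, while the 4 groups lie close together for FKBP5.

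TSC22D3 encodes GILZ, a leucine zipper protein that binds and inhibits NF-kB and AP-1 and is a widely used readout of receptor activity (ENSG00000157514.18, GRCh38 chromosome X, 107713221 to 107777342, minus strand, GENCODE 29). It stood at 9.68, 9.47 and 9.81 in the compound 1 libraries, 8.51, 8.47 and 8.54 in the compound 4 libraries and 8.54, 8.70 and 8.70 in the compound 5 libraries, against 9.53, 9.38 and 9.43 in the vehicle libraries. All 6 libraries of compounds 4 and 5 lay below every vehicle library, and those of compound 1 overlapped vehicle. The group means were 9.66 ± 0.17 with compound 1, 8.51 ± 0.033 with compound 4 and 8.65 ± 0.091 with compound 5, against 9.45 ± 0.079 with vehicle (SD, n = 3 each). The difference from vehicle was -0.94 with compound 4 (SE 0.061, 95% interval -1.07 to -0.82), a level of 0.521-fold on the rlog scale. With compound 5 it was -0.80 (interval -0.93 to -0.68), or 0.574-fold. Of the 15524 genes tested, TSC22D3 had the 20th lowest difference with compound 4 and the 11th lowest with compound 5. With compound 1 the difference was 0.21 (interval 0.08 to 0.33). That call was lost when replicate 1 or 3 of compound 1, or replicate 2 or 3 of vehicle, was left out, with values of 0.13 to 0.30 over the libraries left out in turn. With all libraries it was also lost without a filter, with a robust variance and without a variance trend. Replicate 3 of compound 1, the highest library for TSC22D3, also had the highest NEAT1 of its group, at 12.67, and with a term for the mean of NEAT1 and MALAT1 in the fit, which was chosen after seeing the data, the compound 1 difference was 0.082 and not called. Both RNAs averaged higher with every compound than with vehicle, so this term cannot be separated from treatment.

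TSC22D1, a relative of TSC22D3 first described as a gene induced by transforming growth factor beta, lies on chromosome 13 (ENSG00000102804.15, 44432143 to 44577147, minus strand). It stood at 12.17, 12.13 and 12.21 with compound 1, 12.19, 12.15 and 12.25 with compound 4 and 11.95, 12.04 and 12.04 with compound 5, against 12.50, 12.37 and 12.38 with vehicle. Every treated library was below every vehicle library, and TSC22D1 was the 1 member called lower with all 3 compounds. The differences were -0.24 with compound 1 (95% interval -0.33 to -0.16), -0.22 with compound 4 (-0.30 to -0.13) and -0.40 with compound 5 (-0.49 to -0.32), each with an SE of 0.041. With compound 1 this was the 54th lowest of 15524 differences. The levels with compounds 4 and 1 overlapped, and the compound 5 libraries lay below both. TSC22D1-AS1, on the opposite strand, had a mean of 4.73, and since the strand setting of the counting was not given in the sources used here, reads of the 2 genes cannot be told apart where they overlap.

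TSC22D4, another relative, fell by 0.16 with compound 1, 0.17 with compound 4 and 0.16 with compound 5 (SE 0.038; limma, Benjamini-Hochberg adjusted p = 0.00573, 0.000557 and 0.00221), and its libraries lay below vehicle in every comparison. The compound 1 call was lost without replicate 1 of vehicle. TSC22D2 was not called, at 0.064, 0.061 and -0.10.

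KLF9, a zinc finger factor of the Krüppel-like family that receptor activation induces in many tissues, lies on chromosome 9 (ENSG00000119138.5, 70384597 to 70414624, minus strand). It stood at 8.90, 8.93 and 8.96 with compound 1, 8.56, 8.53 and 8.72 with compound 4 and 8.58, 8.62 and 8.61 with compound 5, against 9.04, 8.97 and 8.99 with vehicle. The libraries of compounds 4 and 5 overlapped each other and lay below those of compound 1 and vehicle. The difference from vehicle was -0.40 with compound 4 (SE 0.047, 95% interval -0.50 to -0.30) and -0.40 with compound 5 (-0.49 to -0.30), levels of 0.758-fold and 0.759-fold. With compound 1 it was -0.072 (-0.17 to 0.023) and was not called, though all 3 libraries lay just below the lowest of vehicle.

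Of 14 other Krüppel-like factors 12 were tested. KLF6 fell with compound 1 (by 0.13, limma adjusted p = 0.0378) the 1 call there, or 8.33% against 10.9% of all genes. With compound 4, 6 fell and 2 rose, 66.7% against 40.6% of all genes, and with compound 5, 5 fell and 2 rose, 58.3% against 35.1%. KLF3 (-0.37 and -0.29), KLF4 (-0.31 and -0.31) and KLF12 (-0.31 and -0.28) fell with compounds 4 and 5, as did KLF13 (-0.23 and -0.41) and KLF7 (-0.27 and -0.15), and KLF6 also fell with compound 4 (by 0.13). Both KLF6 calls were lost without replicate 2 of vehicle, among other libraries. KLF5 (0.49 and 0.17) and KLF10 (0.23 and 0.27), which transforming growth factor beta induces, rose with both. KLF2, KLF11, KLF16 and KLF17 were not called with any compound. KLF15, a well known glucocorticoid target in muscle and liver, had a mean below the filter, as had KLF8. The list's medians were 0.023, -0.11 and -0.090 with compounds 1, 4 and 5.

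SGK1, a kinase of the AKT family that acts on ion channels and on FOXO3 and is transcribed in answer to steroids, osmotic stress and serum, lies on chromosome 6 (ENSG00000118515.12, 134169246 to 134318112, minus strand). It stood at 8.98, 8.95 and 9.00 with compound 1, 9.33, 9.47 and 9.36 with compound 4 and 9.13 in each of the 3 compound 5 libraries, against 8.81, 8.91 and 8.84 with vehicle. The 4 groups did not overlap, in the order compound 4, compound 5, compound 1 and vehicle. The difference from vehicle was 0.53 with compound 4 (SE 0.043, 95% interval 0.44 to 0.62, 1.44-fold) and 0.27 with compound 5 (0.19 to 0.36, 1.21-fold). With compound 1 it was 0.12 (0.031 to 0.21) and was not called, but it was called when replicate 1 of compound 5 was left out. Its relative SGK3 was not called with any compound (0.0011, 0.060 and 0.045), and SGK2 was below the filter.

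FKBP5 encodes FKBP51, an HSP90 cochaperone that lowers the affinity of the receptor for its hormone and closes a negative feedback loop (ENSG00000096060.15, chromosome 6, 35573585 to 35728583, minus strand). It stood at 7.79, 7.77 and 7.72 with compound 1, 7.82, 7.80 and 7.78 with compound 4 and 7.80, 7.68 and 7.78 with compound 5, against 7.83, 7.91 and 7.83 with vehicle. All treated libraries lay below the vehicle libraries, but only just, with replicate 1 of compound 4 at 7.8232 and replicate 1 of vehicle at 7.8265. The differences were -0.098 with compound 1 (95% interval -0.19 to -0.0046), -0.054 with compound 4 (-0.15 to 0.039) and -0.10 with compound 5 (-0.20 to -0.011), and none was called. Over the 3 comparisons the interval bounds ran from -0.20 to 0.039. Without replicate 1 of compound 5 the compound 5 difference was -0.13 and was called. It was also called with all libraries under quantile normalization and without a variance trend.

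FKBP4, which encodes FKBP52 and favours transport of the receptor to the nucleus, fell by 0.21 with compound 1 (adjusted p = 0.000739), rose by 0.17 with compound 4 (adjusted p = 0.000736) and stood at -0.040 with compound 5 (adjusted p = 0.454; limma, Benjamini-Hochberg). Of the 12 FKBP relatives tested, 2 rose and 1 fell with compound 1, or 25.0% against 10.9% of all genes. With compound 4, 2 rose and 3 fell, and with compound 5, 3 rose and 1 fell, shares of 41.7% and 33.3% that are near the 40.6% and 35.1% of all genes. FKBP10, a collagen chaperone of the endoplasmic reticulum, rose with compound 1 (by 0.33) and compound 5 (by 0.25), and stood at -0.076 with compound 4. FKBP7 (-0.41), FKBP9 (-0.21) and FKBP14 (-0.22), of the same compartment, fell with compound 4, while FKBP9 rose with compound 1 (by 0.15). FKBP14 also fell with compound 5 (by 0.13), FKBP15 rose with compounds 4 and 5 (by 0.25 and 0.13) and FKBP1A rose with compound 5 (by 0.12). The calls of FKBP9 with compound 1 and of FKBP14 and FKBP15 with compound 5 were each lost without replicate 3 of vehicle, among other libraries. FKBP1B, FKBP3, FKBP8, FKBP11 and FKBPL were not called with any compound, and FKBP2 was below the filter.

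NR3C1, the receptor itself, lies on chromosome 5 (ENSG00000113580.15, 143277931 to 143435512, minus strand). It stood at 11.57, 11.59 and 11.55 with compound 1, 11.35, 11.36 and 11.37 with compound 4 and 11.56, 11.38 and 11.33 with compound 5, against 11.53, 11.49 and 11.53 with vehicle. The compound 4 libraries lay below vehicle, the compound 1 libraries above it, and the compound 5 libraries overlapped it through replicate 1, which was 11.56. The differences were 0.053 with compound 1 (SE 0.043, 95% interval -0.035 to 0.14), -0.16 with compound 4 (-0.25 to -0.072) and -0.095 with compound 5 (-0.18 to -0.0068), and only that of compound 4 was called. Without replicate 1 of compound 5 the compound 5 difference was -0.16 and was called. With the NEAT1 and MALAT1 covariate the differences were 0.14, -0.059 and 0.027 and none was called, and the value for compound 5 changed sign. The covariate was itself higher with every compound than with vehicle, so this fit cannot separate it from treatment. Each treated group lay within 0.16 of vehicle on the log2 scale, a level of 0.895-fold or more.

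Among the receptor's relatives, NR3C2, the mineralocorticoid receptor, which also binds cortisol, fell with compound 5 (by 0.14, limma adjusted p = 0.0268), a call lost without replicate 2 of compound 5 or replicate 2 of vehicle, and stood at -0.077 with compound 4 and -0.044 with compound 1. ESR1 was not called with any compound, and PGR and ESR2 were below the filter.

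ZBTB16 encodes PLZF, a zinc finger repressor that dexamethasone induces in many cell types (ENSG00000109906.15, chromosome 11, 114059593 to 114250676, plus strand). It was listed at 0 in every library of compounds 1, 4 and 5 and of vehicle, as were 25759 of the 62757 genes, and no fold or limit can be given without counts. Other genes have values below 0 on this scale, such as TAT (-1.97 in every group). The 0 of ZBTB16 therefore cannot be ranked against them as a level. Of 7 tested relatives of ZBTB16 with the same protein domain, 0 were called with compound 1, where 10.9% of all genes were. With compound 4, 1 rose and 3 fell, 57.1% against 40.6% of all genes. With compound 5, 1 rose and 3 fell, 57.1% against 35.1%. ZBTB20 rose with compound 5 (by 0.37, limma adjusted p = 4.13e-06) and stood at 0.12 and 0.13 with compounds 1 and 4. BCL6 (-0.19 and -0.15), ZBTB33 (-0.17 and -0.21) and ZBTB7A (-0.16 and -0.11) fell with compounds 4 and 5, ZBTB7B rose with compound 4 (by 0.11), and ZBTB10 and ZBTB38 were not called. The ZBTB7A call with compound 5 was lost without replicate 1 of compound 5 or replicate 3 of vehicle.

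**Figure D2:**
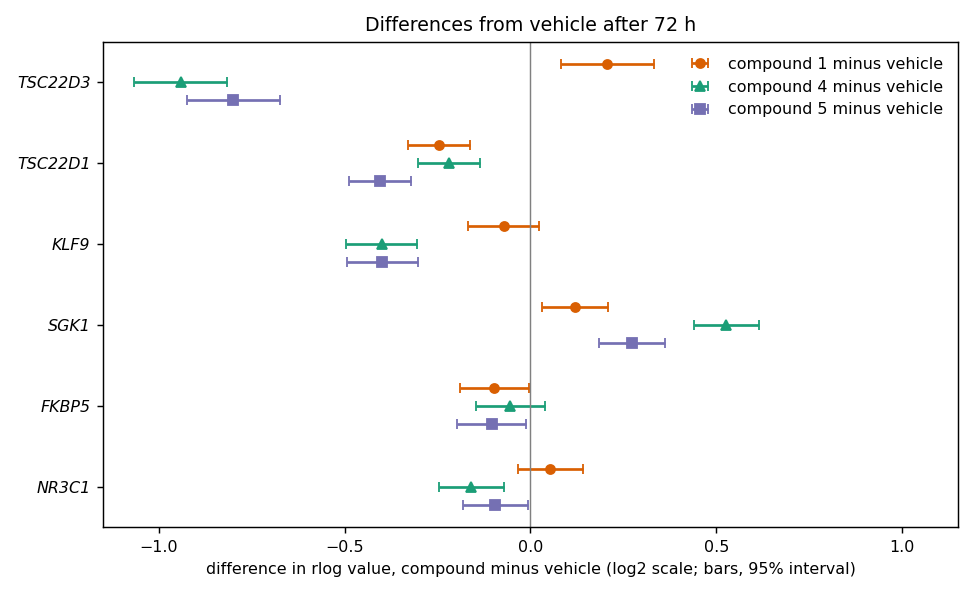
Difference of the 6 measured members from vehicle on the log2 scale, 1 point for each compound, with the 95% interval from limma as bars. TSC22D3 lies at -0.94 and -0.80 with compounds 4 and 5 and at 0.21 with compound 1, and SGK1 lies at 0.53, 0.27 and 0.12.

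With the NEAT1 and MALAT1 covariate the called differences of TSC22D3, KLF9 and SGK1 with compounds 4 and 5 and of TSC22D1 with all 3 compounds were as large or nearly so, while that of TSC22D3 with compound 1 was not called, as given above. TSC22D3 was at -1.09 with compound 4 and -0.99 with compound 5, KLF9 at -0.43 and -0.43, SGK1 at 0.51 and 0.26, and TSC22D1 at -0.27, -0.25 and -0.44 with compounds 1, 4 and 5. NEAT1 averaged 0.54, 0.84 and 0.72 above vehicle with compounds 1, 4 and 5, so the covariate is confounded with treatment. The fit cannot separate the covariate from treatment, whether a difference is kept or lost. The part of the mitochondrial mRNAs and of FN1, CSF1R, VWF and KRT8 in these differences was not tested.

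The members differed in which of them went together across the 12 libraries. The 12 points share 4 groups and come from the same libraries, so each Pearson's r is a description. TSC22D3 and KLF9 had an r of 0.925 over all libraries and 0.359 after each group's mean was removed. TSC22D3 and SGK1 had -0.837 over all and -0.047 within groups, and KLF9 and SGK1 had -0.862 and -0.407. TSC22D3 and TSC22D1 had 0.521 over all and 0.799 within groups, and KLF9 and TSC22D1 had 0.729 and 0.709. FKBP5 had an r of 0.0798 over all and -0.531 within groups with TSC22D3, 0.262 and -0.484 with KLF9, -0.195 and 0.184 with SGK1, and 0.550 and -0.587 with TSC22D1, so that each of these 4 turned sign within groups. NR3C1 turned sign too, with TSC22D3 (0.784 and -0.46), KLF9 (0.728 and -0.088) and TSC22D1 (0.225 and -0.388). It kept its sign with SGK1 (-0.756 and -0.129) and FKBP5 (0.102 and 0.24).

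**Figure D3:**
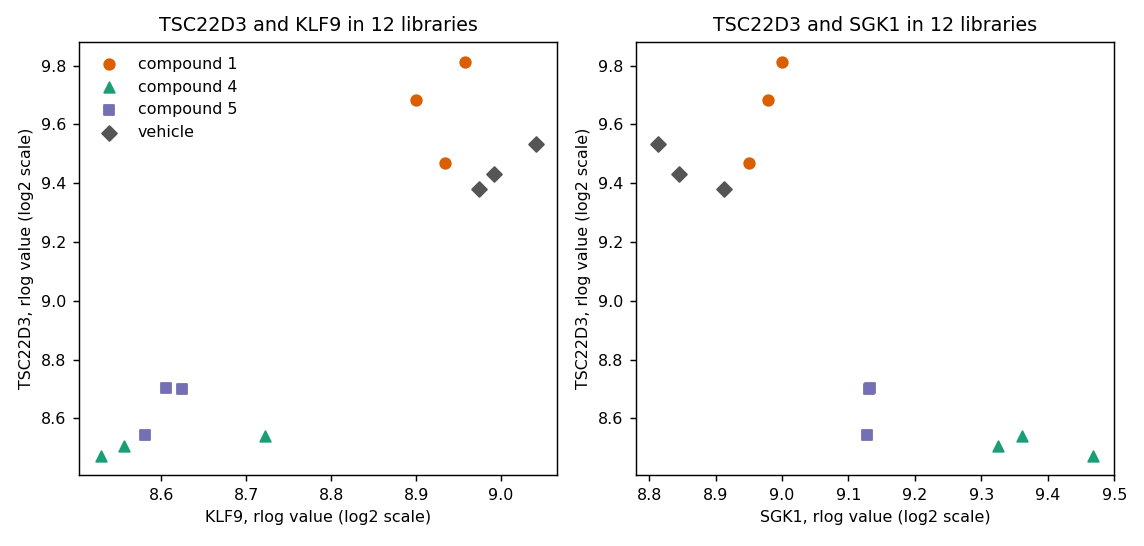
TSC22D3 against KLF9 (left) and against SGK1 (right) in the 12 libraries, as rlog values on the log2 scale; each point is a library and shapes mark the groups. The libraries of compounds 4 and 5 form a cluster low in TSC22D3, apart from those of compound 1 and vehicle, and r within groups was 0.359 and -0.047.

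Among the 596 tested genes with an SD of at least 0.2 over the 12 libraries, those most like each member by Pearson's r were named, again as a description over the same 4 groups. For TSC22D3 they were SLC1A5, a glutamine transporter (0.990), CAMKK2, a kinase that activates AMPK (0.986), and CYP1B1, a monooxygenase that dioxins induce (0.985). SLC1A5 averaged 12.70, 12.09 and 12.19 with compounds 1, 4 and 5, against 12.66 with vehicle. For KLF9 they were the Golgi proteins ACBD3 (0.988) and GOLGA3 (0.977) and the lipid synthesis regulator MID1IP1 (0.980). For SGK1 they were the noncoding RNA SNHG17 (0.986), TRAF1, a signalling adaptor of the NF-kB pathway (0.978), and BAG1, an HSP70 cochaperone that also binds the receptor (0.977). For NR3C1 they were the myosin kinase MYLK (0.949), ADAMTSL1 (0.932) and the netrin receptor DCC (0.923). For TSC22D1 they were NR4A1, an orphan nuclear receptor and immediate early gene (0.957), the steroid-metabolizing enzyme AKR1C1 (0.945), whose near-identical relatives can share its reads, and MEF2D (0.879). NR4A1 averaged 8.33, 8.43 and 8.20 with compounds 1, 4 and 5, against 8.83 with vehicle. For FKBP5 the same 3 genes led with lower values (0.666, 0.590 and 0.570).

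The proteins that fold, carry and assist the receptor were examined next, as a list of 21 chaperones, coregulators and cortisol-converting enzymes, of which 20 were tested. This list and those that follow were chosen with earlier results known, so their shares are a description only. With compound 1, 8 fell, 40.0% of those tested against 10.9% of all genes, with a list median of -0.077. The largest falls were in chaperone and cochaperone genes of the list, while PPID (-0.0375), STUB1 (-0.091) and BAG1 (0.065) were not called. HSPA8, the constitutive HSP70, averaged 14.28 with compound 1 against 14.63 with vehicle, a fall of 0.35 (SE 0.046, limma adjusted p = 8.91e-06). STIP1, which hands clients from HSP70 to HSP90, fell by 0.27 (SE 0.037, adjusted p = 1.64e-05), HSP90AA1 by 0.25 (SE 0.043, adjusted p = 0.000283) and FKBP4 by 0.21. HSP90AB1, the p23 gene PTGES3, MED1 and SMARCA4 fell as well. The count of falls was 5 without replicate 2 or replicate 3 of vehicle, without a filter or with quantile normalization, and 4 with the NEAT1 and MALAT1 covariate. Over all genes, 424, 619, 378, 680 and 215 were called lower in these settings, in that order, against 874. MED1 and SMARCA4 lost their calls in most settings and PTGES3 without replicate 3 of compound 1 or replicate 2 or 3 of vehicle.

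With compound 4, 5 of the 20 rose and 3 fell, 40.0% against 40.6% of all genes, with a median of 0.0057. BAG1 averaged 8.37 with compound 4 against 7.82 with vehicle, a rise of 0.55 (SE 0.046, limma adjusted p = 1.52e-10). FKBP4 rose by 0.17, NRIP1 by 0.16, STUB1 by 0.13 and HSP90AA1 by 0.12. The coactivator NCOA2 fell by 0.22 (SE 0.046, adjusted p = 0.000398), NCOR1 by 0.13, and HSD11B1, which regenerates cortisol from cortisone, by 0.20 (SE 0.057, adjusted p = 0.00725). The HSD11B1 call was lost without replicate 2 of compound 4 or replicate 1 of vehicle, and those of HSP90AA1 and NCOR1 without replicate 3 of compound 4. The NRIP1 call was lost without replicate 2 of compound 4 or replicate 2 of vehicle, and that of STUB1 without any 1 of the compound 4 libraries or replicate 1 or 3 of vehicle. The count of rises was 3 without replicate 2 of compound 4 or replicate 1 of vehicle. Over all genes, 2406 and 2358 were called higher there, against 2952. HSD11B2, which inactivates cortisol, was below the filter.

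With compound 5, 6 of the 20 fell and 1 rose, 35.0% against 35.1% of all genes, with a median of -0.083. Those that fell were the coactivator NCOA2, at -0.35 (SE 0.046, limma adjusted p = 1.32e-06), the Mediator subunit MED1, at -0.31 (SE 0.049, adjusted p = 1.71e-05), the corepressor NCOR1, at -0.20, CREBBP, at -0.19, NCOA3, at -0.13, and SMARCA4, at -0.097. The coactivators NCOA1 and EP300 were not called, the NCOA3 libraries overlapped vehicle, and the calls of CREBBP, NCOA3 and SMARCA4 were each lost without replicate 3 of compound 5, those of NCOA3 and SMARCA4 also without several other libraries. BAG1 rose by 0.24 (SE 0.046, adjusted p = 0.000164), and none of the HSP90 and HSP70 genes of the list was called. The count of falls was 11 without replicate 1 of compound 5 and 3 without replicate 3 of compound 5, and it was 1 with the NEAT1 and MALAT1 covariate. Over all genes, 3202, 2587 and 1137 were called lower in these settings, against 2978.

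Genes other than the members that glucocorticoids are known to induce made a list of 32, of which 27 were tested. With compound 1, 2 rose and 3 fell, 18.5% against 10.9% of all genes, with a median of -0.025. The count of falls there was 5 without replicate 1 of compound 5, and 2 without replicate 1 of compound 1, replicate 1 or 2 of vehicle, or a filter, where CEBPB lost its call. Over all genes, 1283, 533, 512, 424 and 378 were called lower in these settings, in that order, against 874. With compound 4, 12 rose and 10 fell, 81.5% against 40.6% of all genes, with a median of 0.025. With compound 5, 10 rose and 10 fell, 74.1% against 35.1%, with a median of -0.024. With compounds 4 and 5 the called genes were split between both directions.

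Those that rose with compounds 4 and 5 included ANGPTL4, an inhibitor of lipoprotein lipase, which averaged 7.84 with compound 4 and 8.02 with compound 5, against 7.06 with vehicle. Its rises were 0.78 (SE 0.083, limma adjusted p = 2.06e-08) and 0.96 (adjusted p = 1.07e-09). The metallothionein MT2A rose by 0.71 and 0.62 and MT1X by 0.50 and 0.46, genes that metals and oxidants also induce and whose close relatives can share reads. DUSP1, a phosphatase of MAP kinases, rose by 0.73 with compound 4 (SE 0.049, adjusted p = 2.18e-12) and 0.19 with compound 5, the second a call lost without replicate 3 of compound 5. ERRFI1, an inhibitor of the EGF receptor, rose by 0.24 and 0.52, the first a call lost without replicate 2 of compound 4 or replicate 1 of vehicle. GPX3, TIPARP, NFKBIA and RASD1 rose with both compounds, THBD and LCN2 rose with compound 4, as did ANXA1 (by 0.092, a call lost without any 1 of the compound 4 or vehicle libraries), and RGS2 rose with compound 5. The count of rises with compound 5 was 6 without replicate 1 of vehicle, where GPX3, TIPARP, NFKBIA and RGS2 lost their calls. Over all genes, 1870 were called higher there, against 2465. The GPX3 call was also lost without replicate 1 of compound 5, and that of NFKBIA without replicate 2 or 3 of compound 5 or replicate 3 of vehicle.

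Those that fell were led by TXNIP, an arrestin-like inhibitor of thioredoxin and glucose uptake, which averaged 13.53 with compound 4 and 14.17 with compound 5, against 14.88 with vehicle. Its differences were -1.35 (SE 0.059, limma adjusted p = 1.68e-16) and -0.703 (adjusted p = 5.37e-10). The clock gene PER1 fell by 0.44 and 0.52, the glutamine synthetase gene GLUL by 0.45 and 0.44, MAOA by 0.49 and 0.41, DDIT4, an inhibitor of mTORC1, by 0.41 and 0.34, and CEBPD by 0.41 and 0.21. IRS2 and BCL6 fell with both compounds as well, CEBPB (by 0.24) fell with compound 5 and CDKN1C (by 0.087) with compound 4. PDK4, a kinase that restrains pyruvate dehydrogenase, fell with all 3 compounds, by 0.37, 0.40 and 0.41 (SE 0.058, adjusted p = 0.000113, 3.15e-06 and 3.78e-06). With compound 1, CEBPB (by 0.15) and ANXA1 (by 0.18) fell too, and MT1X (by 0.19) and MT2A (by 0.15) rose, both calls lost without replicate 1 or 2 of compound 1 or replicate 1 or 2 of vehicle, and that of MT2A also without replicate 3 of vehicle. ZFP36, CRISPLD2 and HIF3A were not called with any compound. KLF15, TAT, PCK1, CD163 and CIDEC were below the filter.

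**Figure D4:**
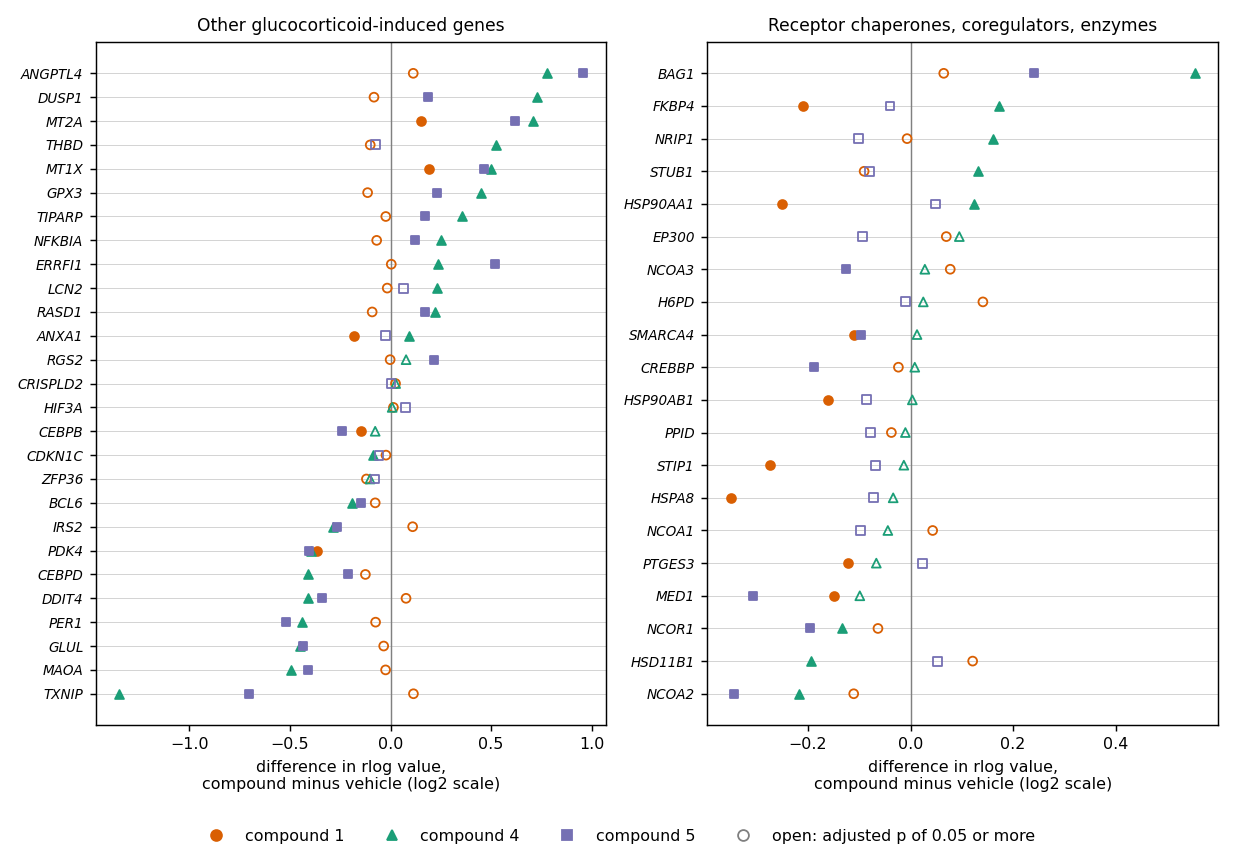
Difference from vehicle on the log2 scale for the 27 tested glucocorticoid-induced genes other than the members (left) and the 20 tested receptor chaperones, coregulators and enzymes (right), ordered by the compound 4 value; the panels have different scales. Filled symbols mark genes called in limma (adjusted p under 0.05) and open ones those not called. ANGPTL4 and TXNIP mark the ends of the left panel with compound 4, at 0.78 and -1.35, and BAG1 and NCOA2 those of the right, at 0.55 and -0.22.

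Genes that FOXO factors are known to induce made a list of 17, 15 of them tested, and 5 of them, TXNIP, IRS2, BCL6, PDK4 and KLF15, are also in the list above. With compound 4, 10 fell and 0 rose, 66.7% against 40.6% of all genes, with a median of -0.16. With compound 5, 8 fell and 0 rose, 53.3% against 35.1%, with a median of -0.15. With compound 1, PDK4 fell and CCNG2 rose (by 0.16, limma adjusted p = 0.0140), 13.3% against 10.9% of all genes, with a median of 0.030. SESN3, a stress-induced inhibitor of mTORC1, fell by 0.41 with compound 4 (SE 0.045, adjusted p = 3.88e-08) and 0.24 with compound 5, SOD2 by 0.25 and 0.29 and CDKN1B by 0.14 and 0.17. Catalase, CAT, fell by 0.30 with compound 4 (adjusted p = 1.38e-06) and stood at -0.041 with compound 5. SESN1 and CCNG2 fell with compound 4 and FBXO32 fell with compound 5, while PIK3IP1, BCL2L11, CITED2 and INSR were not called and TRIM63 was below the filter. The CCNG2 call with compound 1 was lost without replicate 1 of compound 1 or replicate 2 or 3 of vehicle, and that with compound 4 without replicate 2 of compound 4 or replicate 1 or 2 of vehicle. CDKN1B lost its compound 4 call without replicate 1 of compound 4 or replicate 1 of vehicle, and FBXO32 its compound 5 call without replicate 1 or 3 of compound 5 or replicate 1 of vehicle.

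Inflammatory genes that the receptor restrains made a list of 20, 19 of them tested. It too was chosen with earlier results of these data known, so its shares are no test of the list. With compound 4, 15 rose and 1 fell, 84.2% against 40.6% of all genes, with a median of 1.19. With compound 5, 17 rose, 89.5% against 35.1% of all genes, with a median of 0.48. With compound 1, 3 fell and 1 rose, 21.1% against 10.9%, with a median of -0.0039. CSF3 fell by 0.58 with compound 1 (SE 0.079, limma adjusted p = 1.55e-05) and rose by 1.80 with compound 4 and 0.91 with compound 5. ICAM1 rose by 0.26 with compound 1 (adjusted p = 0.00182), 0.25 with compound 4 and 0.35 with compound 5. Of the other named members of that list, CXCL1 (-0.26) and IL6 (-0.20) fell with compound 1. Both rose with compound 4 (1.19 and 1.33) and with compound 5 (0.605 and 0.794). IL1B (2.53 and 1.21), IL11 (2.11 and 1.26), CXCL8 (1.70 and 1.11) and CSF2 (1.42 and 1.11) rose with compounds 4 and 5. The IL6 call with compound 1 was lost without replicate 1 or 3 of compound 1 or replicate 2 or 3 of vehicle. The count of falls with compound 1 was 7 without replicate 2 of compound 1 and 6 without replicate 1 of compound 5. Over all genes, 863 and 1283 were called lower there, against 874.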

How the data were processed

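Poly(A) RNA of 12 U87 libraries, 3 per group, was sequenced. Per the submitters' processing notes, STAR 2.7.10a, DESeq2 1.30.1 and GRCh38 were used; the counter, annotation release, strand setting and filters were not given in the sources used here. The authors deposited regularized log values on the log2 scale, which shrink each gene towards its mean, so differences and spreads of weakly read genes are understated. Depth is unknown and no counting interval was computed.

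From 62757 genes (62639 with a symbol by gene ID), the 15524 with a mean of at least 3 were fitted across all genes with limma 3.58.1 in R 4.3.3 (1 mean per group, eBayes with a trend), and p-values were adjusted by Benjamini-Hochberg over all of them at a threshold of 0.05. Intervals are 95%. The script was checked on simulated data. The members, gene lists and motifs were chosen with earlier results of these data known, and some genes are not reported here. The text names all members, up to 4 called genes per list and compound with the largest absolute difference, all tested relatives of members given in the lists and the 3 genes most like each member; other list genes named were chosen after their values were seen. Promoters were read and figures drawn in Python 3.11.15. Settings tried were other filters, scalings, variance estimates and samples, a replicate block, each library left out, and a covariate.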

Additional observations from a re-analysis of the deposited data

How the results depend on the processing

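No member changed sign with a call under any setting run. Of 18 member differences, a call was lost or gained in 1 without a filter, 1 with quantile normalization, 1 with a robust variance, 2 without a variance trend, 2 with the NEAT1 and MALAT1 covariate (chosen after seeing the data) and 3 without replicate 1 of compound 5; median-centred libraries, a minimum mean of 5 and fits of only the 2 groups compared changed 0. Over single libraries left out, TSC22D3 ran from -0.975 to -0.898 with compound 4 and from -0.834 to -0.748 with compound 5, KLF9 from -0.460 to -0.363 and -0.413 to -0.380, and SGK1 from 0.486 to 0.557 and 0.252 to 0.302. The count of genes called with compound 1 was 800 without a filter, which also adds weakly read genes to the adjustment, and 608 with the covariate, against 1688; 64.6% of the calls were then higher, against 48.2%. With the covariate it was 4056 with compound 4, against 6300, and 2266 with compound 5, against 5443; the cause was not tested. Leaving out 1 library gave 849 to 2363 with compound 1 (lowest without replicate 2 of vehicle, highest without replicate 1 of compound 5), 5128 to 6819 with compound 4 and 4242 to 5701 with compound 5. Deviations of same-numbered libraries had r of -0.2155 to 0.249 (18 pairs, median 0.0155, 4 over 0.1). Pairs of unlike number had r of -0.2648 to 0.2551 (36 pairs, median 0.0049, 5 over 0.1). With 3 libraries per group these values cannot exclude a pairing by number. With the replicate number as a block 1706, 6309 and 5484 genes were called with compounds 1, 4 and 5, and 0 member calls changed. Of the receptor chaperone and coregulator list, without a filter 2 rose with compound 4 and 3 fell with compound 5. Over all genes, 2553 were then called higher with compound 4, against 2952, and 2443 lower with compound 5, against 2978. Of the other named or listed genes, HSP90AB1 with compound 4 was at -0.0989 and called with quantile normalization, against 0.00336, and with the covariate H6PD, PTGS2 and CITED2 with compound 5 were at 0.1996 (called), -0.064 (not called) and 0.2074 (called), against -0.0104, 0.149 and -0.0421. Depth could not be judged without counts.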
